A study of Rattus norvegicus with 2 samples.

Results

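Car2, Car3, Car8, Car12 and Car14 are 5 of the 16 carbonic anhydrase genes among the 32623 genes counted in cells of the rat cochlear duct, the epithelial tube that carries the sensory organ of hearing. They were found by their symbols, each of which stood on a single line of the gene list (Car2, ENSRNOG00000009629; Car3, ENSRNOG00000010079; Car8, ENSRNOG00000005669; Car12, ENSRNOG00000017766; Car14, ENSRNOG00000023162). The cochlear ducts came from Sprague-Dawley rats on postnatal day 1 (P1) and postnatal day 7 (P7), with no further treatment or allele named. Each age is 1 library of single cells pooled from many rats, so no replicate error can be had, and age and library cannot be told apart. The question put to the genes was in which cell types each was found at each age and where its level differed.

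Carbonic anhydrases catalyse the reaction of carbon dioxide with water to bicarbonate and a proton, and so supply the ions that transporters move in bone, kidney, eye and ear. Car2 is the fast cytosolic enzyme, abundant in red blood cells and osteoclasts, and Car3 is a slow cytosolic form known from muscle and fat. Car12 and Car14 sit in the plasma membrane with the catalytic site outside the cell. Car8, like Car10 and Car11, is a related protein that lacks the catalytic activity and is best known from neurons of the cerebellum. In the cochlea the fibrocytes of the lateral wall are long known to stain for carbonic anhydrase.

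The P1 library held 14068 barcodes and the P7 library 14501, of which 12779 and 12581 passed limits on genes, transcripts and mitochondrial share. A unique molecular identifier (UMI) marks 1 captured transcript, and the kept cells had medians of 6565 UMIs at P1 and 6878 at P7, 98005495 and 93080129 in all. Cells were put into classes by scores of marker genes, which gated 70.1% of the kept cells at P1 and 73.5% at P7, and classes are named after their markers with the ending -like. A total of 4609 cells lay within 0.1 of a limit of the gate. The libraries are labelled as cells of the greater epithelial ridge, the tall epithelium beside the hair cells. Cells gated on its tectorial membrane genes were 0.704% of the kept cells at P1 and 1.18% at P7. Among clusters made without the carbonic anhydrases, the one named for these genes (number 14) held 283 cells at P1 and 219 at P7. The study regarded its clusters high in Otor, Col6a1, Scara3 and Ccn3 as ridge cells. By in situ hybridization it placed Otor at P1 almost only in the ridge. Cells high in Otor are called fibrocytes here after their markers, and their place in the tissue was not tested. Mesenchymal classes, glia, neurons, endothelial cells and pericytes made up the bulk, although spiral ligament, stria vascularis and spiral ganglion were separated from the duct before dissociation. The libraries shared 60 barcodes, 53 of them among kept cells, and in the calls of a doublet detector 4.87% and 6.16% of kept cells were doublets, which were left in.

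Levels are given as UMIs of a gene scaled to 1000000 UMIs of the same cells (CPM), with exact 95% Poisson intervals. Shares of cells carry exact binomial (Clopper-Pearson) intervals, and ratios of P7 to P1 carry exact conditional intervals. All of these cover counting error only, and not the spread between animals or libraries.

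Over all kept cells, Car2, Car3 and Car14 were each more than 2-fold higher at P7, where 10.4% of the 12589 genes compared were 2-fold or more higher at P7 and 10.2% at P1. Car2 had 1568 UMIs at P1 and 5036 at P7, 16.0 CPM (15.2 to 16.8) against 54.1 CPM (52.6 to 55.6), a ratio of 3.38. Car3 had 805 and 11359 UMIs, 8.21 CPM (7.66 to 8.80) against 122 CPM (120 to 124), a ratio of 14.9 that put it at the 99.9th percentile of the genes compared. Car14 had 289 and 1144 UMIs, 2.95 CPM (2.62 to 3.31) against 12.3 CPM (11.6 to 13.02), a ratio of 4.17. The intervals of the ages do not overlap for any of these 3 genes. Car8 had 163 and 225 UMIs, 1.66 CPM (1.42 to 1.94) against 2.42 CPM (2.11 to 2.75), and its log2 ratio of 0.54 (0.24 to 0.84) became 0.23 (-0.04 to 0.50) over all deposited barcodes. Car12 was close to the limit of detection, with 33 UMIs at P1 and 3 at P7, and was the member that ran lower at P7 (log2 ratio -3.39, -5.73 to -1.71). The median log2 ratio of all genes compared was 0.07.

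**Figure D1:**
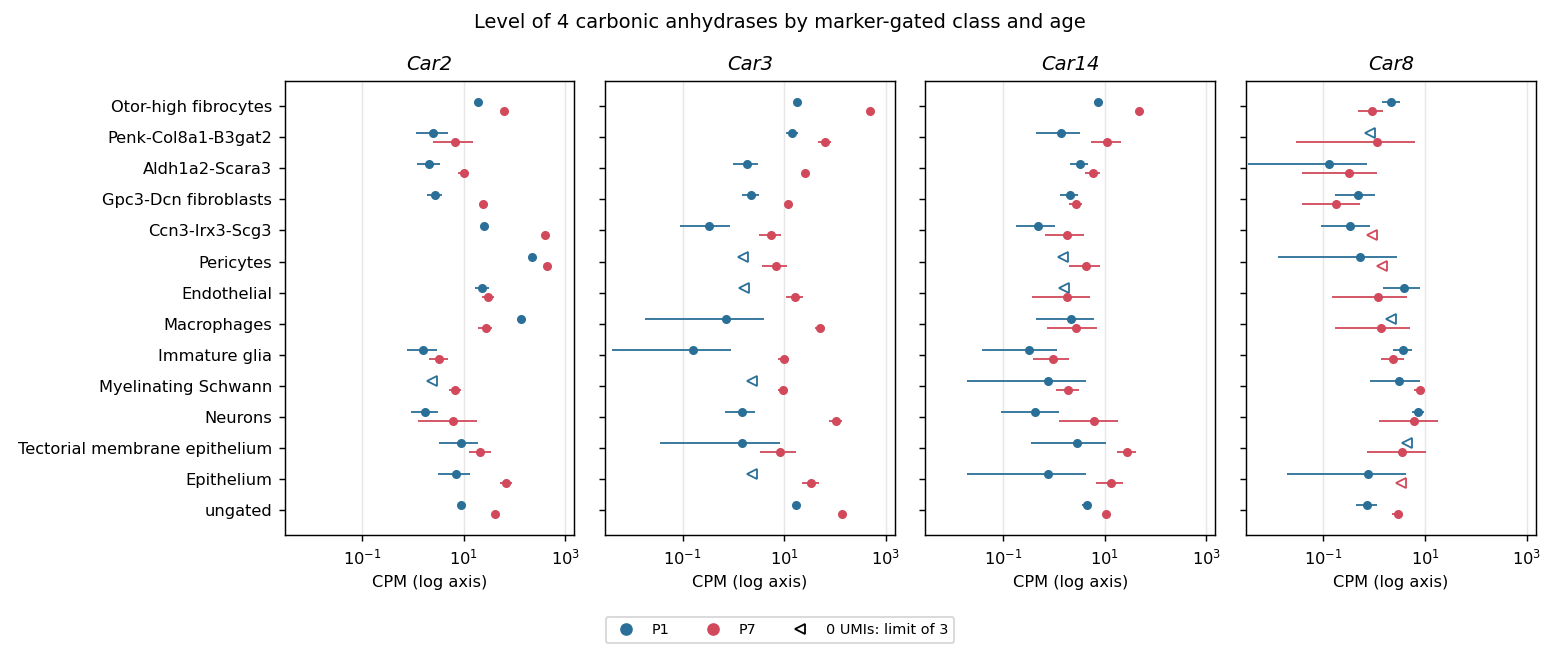
Level of Car2, Car3, Car14 and Car8 (CPM, log axis) in each marker-gated class at P1 (blue) and P7 (red). Points are levels over the pooled cells of a class, bars are exact 95% Poisson intervals, and open triangles mark the limit of 3 UMIs where none was found. Car3 and Car14 were highest in Otor-high fibrocytes at P7, with 484 and 46.5 CPM, and Car2 in pericyte-like cells and in Ccn3-Irx3-Scg3 mesenchyme, with 436 and 393 CPM.

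A change over all cells can come from the make-up of a library or from the levels within classes, and the exchange of one for the other is arithmetic on these sums. With the P7 make-up of classes and the P1 levels, Car2 would have stood at 17.2 CPM, Car3 at 8.26 CPM and Car14 at 3.24 CPM, each near its P1 level. With the P1 make-up and the P7 levels, Car3 would have stood at 117 CPM and Car14 at 11.5 CPM, near their P7 levels. Car2 would have stood at 84.0 CPM, above its P7 level, since Ccn3-Irx3-Scg3 mesenchyme, with much Car2 at P7, made up 11.6% of the kept cells at P1 and 3.58% at P7. For Car8 the exchange gave 1.96 CPM one way and 1.90 CPM the other, between the levels of the ages both times. In this arithmetic the differences in Car2, Car3 and Car14 lay in the levels of classes as gated, with the ungated cells as a class of their own. A shift in the kinds of cell inside a class counts there as a level. Clusters split the fibrocytes and Ccn3-Irx3-Scg3 mesenchyme unequally by age, as given below, and the part of such shifts was not tested.

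**Figure D2:**
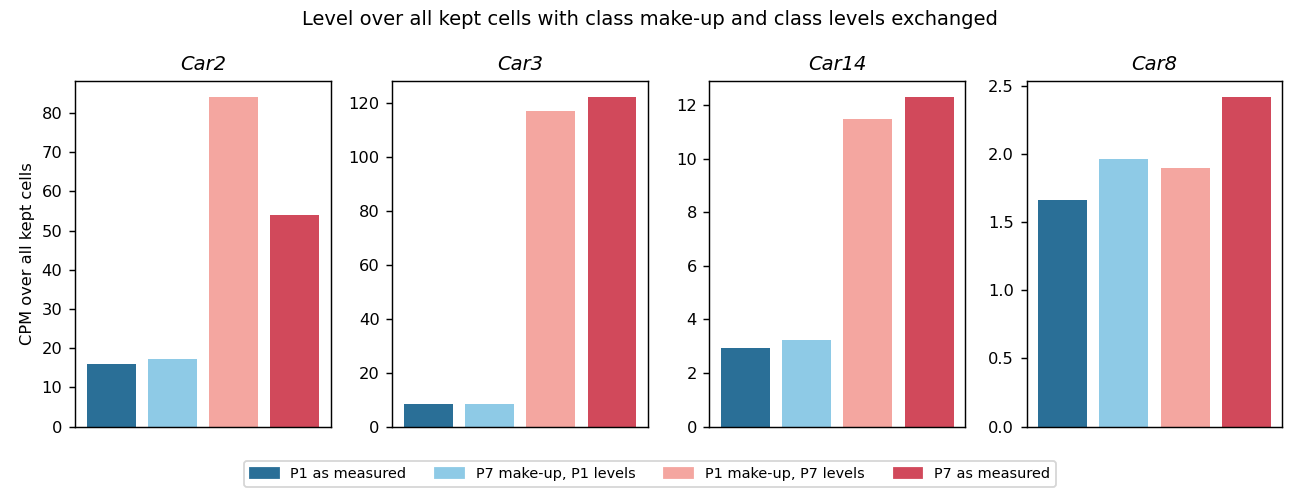
Level over all kept cells (CPM, linear axes that start at 0) for Car2, Car3, Car14 and Car8 as measured at P1 and P7 (outer bars), and as computed with the class make-up of one age and the class levels of the other (inner bars). For Car3 the bar with P7 make-up and P1 levels reached 8.26 CPM and that with P1 make-up and P7 levels 117 CPM.

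At P7 the Otor-high fibrocytes had the highest Car3 level of all classes compared. This class, gated on Otor, Crym, Otos, Isyna1, Col9a1, Col9a2 and Coch (otoraplin, otospiralin and cochlin among them), genes of cochlear fibrocytes and cartilage-like matrix, held 1816 cells at P1 and 1802 at P7. Car3 went there from 18.3 CPM (16.0 to 20.7; 234 UMIs) to 484 CPM (473 to 496; 7064 UMIs), 26.5-fold, where 14.3% of the 11013 genes compared in the class were 2-fold or more higher at P7. The class held 29.1% of all Car3 UMIs at P1 and 62.2% at P7, and the ungated cells 57.0% and 28.1%. Car3 was not confined to these cells at P1: ungated cells stood at 17.3 CPM and Penk-Col8a1-B3gat2 mesenchyme at 14.3 CPM, with intervals that overlap that of the fibrocytes. In Penk-Col8a1-B3gat2 mesenchyme 24 of the 51 UMIs at P1 lay in 3 cells, and without the 3 highest cells of each class it stood at 7.68 CPM (5.06 to 11.2), below the fibrocytes at 14.2 CPM (12.2 to 16.4). At P7 the fibrocytes stood clear of the ungated cells at 136 CPM (132 to 141), and below these the intervals of neighbouring classes overlap all the way down the order. Among the mesenchymal classes Penk-Col8a1-B3gat2 mesenchyme reached 62.6 CPM (47.2 to 81.5), Aldh1a2-Scara3 mesenchyme 25.9 CPM (22.1 to 30.1) and Gpc3-Dcn fibroblasts 12.1 CPM (10.5 to 13.9). Sfrp4-Dlx5-Matn4 mesenchyme stood at 56.6 CPM at P7, and its 29 cells at P1 are too few to compare. In these 4 gated classes the 3 highest cells held 72.7%, 57.6%, 34.3% and 50.8% of the Car3 UMIs at P7, and without them the levels were 18.0, 11.1, 7.98 and 28.1 CPM. Clusters made without the carbonic anhydrases and named for the Sfrp4-Dlx5-Matn4 markers held more cells than the gate. At P7 number 4 stood at 160 CPM of Car3 (153 to 168; 1916 UMIs in 1809 cells) and number 7 at 35.9 CPM (32.6 to 39.3).

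Few fibrocytes carried most of the Car3. With every cell thinned to 2000 UMIs so that depth is equal, 29 of 1796 fibrocytes had a Car3 UMI at P1, 1.61% (1.08 to 2.31), and 385 of 1734 at P7, 22.2% (20.3 to 24.2). Unthinned, the shares were 3.74% and 31.0%, at medians of 6251 and 7716.5 UMIs per cell. In immature glia, taken as a class that should lack the gene, 0.0955% and 1.23% of thinned cells had a Car3 UMI, at medians of 4580 and 4403 UMIs. The gated glia stood at 9.88 CPM of Car3 at P7. A cluster named for the same markers (number 12) stood at 40.5 CPM (35.6 to 45.9; 245 UMIs in 571 cells). By cluster, glia were thus not free of Car3 UMIs. Cells with 5 or more thinned Car3 UMIs were 0.0557% of the fibrocytes at P1 and 6.69% at P7, and the highest single cells held 8 and 20. At P7 the top 10% of fibrocytes held 79.4% of the Car3 UMIs of the class, so that most cells of the gate showed none at this depth.

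**Figure D3:**
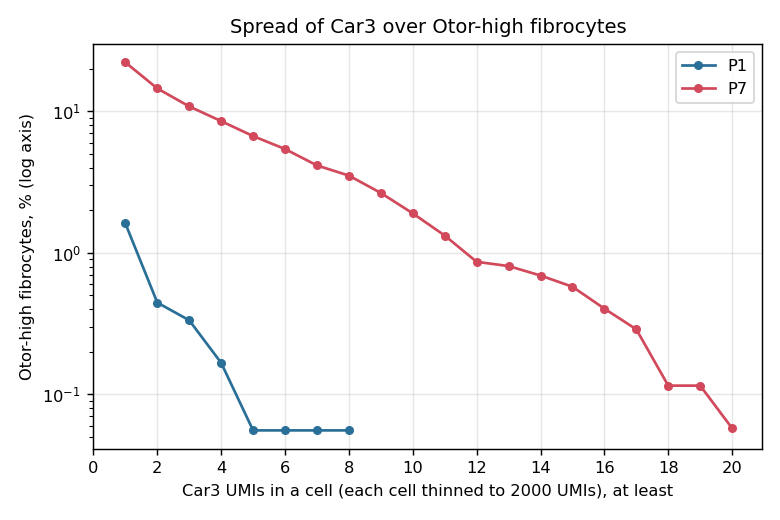
Share of Otor-high fibrocytes (%, log axis) with at least the number of Car3 UMIs on the horizontal axis, every cell thinned to 2000 UMIs, at P1 (blue) and P7 (red). The P7 line starts at 22.2% for 1 UMI and runs out to 20 UMIs, whereas the P1 line starts at 1.61% and ends at 8 UMIs.

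The fibrocytes with Car3 at P7 differed from those without it in other genes of the gate. Otor was found in 385 of 385 thinned cells with Car3 and in 99.7% of those without, and Crym in 99.2% and 97.6%, so both groups bear the leading markers. Coch, which encodes cochlin, an abundant protein of the matrix around cochlear fibrocytes, was found in 10.1% of cells with Car3 (7.30 to 13.6) and 30.2% of those without (27.7 to 32.7). Otos was found in 17.1% with Car3 (13.5 to 21.3) and 23.7% without (21.5 to 26.1). Car14 went the other way, with 14.0% (10.7 to 17.9) against 5.86% (4.66 to 7.25). Car2 was found in 11.4% (8.43 to 15.04) and 7.56% (6.21 to 9.10), with intervals that overlap. Car11, the related protein found in most classes, was found in 23.9% and 23.7%, a difference not detectable at this depth. All these cells come from 1 library, so the shares describe that library.

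In clusters made without the carbonic anhydrases, a single cluster (number 11) held 683 of the 1802 fibrocytes at P7, 37.9%, and with them 82.9% of the Car3 and 82.3% of the Car14 of the class. Inside it Car3 stood at 898 CPM (875 to 921) and outside at 150 CPM (142 to 159). For Car14 the levels were 85.5 CPM (78.6 to 92.9) inside and 14.9 CPM (12.3 to 17.8) outside. That cluster held 870 kept cells of P7 and 27 of P1, whereas the largest cluster of Otor-high fibrocytes at P1 held 3066 cells of P1 and 53 of P7. The split of fibrocyte clusters by library means that age within 1 fibrocyte cluster was measured on few cells of one of the ages. In that largest cluster of P1 (number 0) Car3 stood at 27.0 CPM (24.8 to 29.3; 553 UMIs) at P1. At P7 it stood there at 127 CPM (87.1 to 180; 32 UMIs), a smaller difference than in the class as gated.

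In the 8 gated classes outside the mesenchyme Car3 at P7 ranged from 6.78 CPM in pericyte-like cells to 102 CPM in neuron-like cells, and in each of them 3 cells held between 52.1% and 100% of the UMIs. At P1 no UMI of Car3 was found in myelinating Schwann-like, pericyte-like, endothelial-like or epithelial cells. At P7 these classes stood at 9.47, 6.78, 16.2 and 33.3 CPM, with exact lower limits of 1.70, 1.64, 2.92 and 3.46 for the log2 ratio of P7 to P1. Without the 3 highest cells of each library these limits were 0.38 and 0.16 in myelinating Schwann-like and pericyte-like cells, and -0.43 and -0.71 in endothelial-like and epithelial cells, which leaves no bound above equal levels in the last pair. Of the 50 Car3 UMIs in neuron-like cells at P7 (102 CPM), 29 lay in 1 and 20 in another of the 68 cells. In macrophage-like cells the 3 highest cells held 61 of 74 UMIs (82.4%), in endothelial-like cells 23 of 27 (85.2%) and in epithelial cells 27 of 30 (90.0%). Car3 was less concentrated in immature glia, where 34 cells had a UMI and the 3 highest held 52.1%, and in myelinating Schwann-like cells, where 30 had a UMI and the 3 highest held 58.2%. Of the clusters named for myelinating Schwann cells, number 15 stood at 137 CPM of Car3 at P7 (128 to 148; 728 UMIs in 441 cells). Numbers 1 and 22 stood at 7.72 and 0.717 CPM. Without the 3 highest cells the levels were 9.18 CPM in macrophage-like, 2.46 CPM in endothelial-like and 3.48 CPM in epithelial cells, and no UMI was left in neuron-like cells. In the fibrocytes the 3 highest cells held 4.16% of the UMIs.

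Otor UMIs in other classes give a measure of fibrocyte RNA there. At P7 the fibrocytes had 25.3 Car3 UMIs per 1000 Otor UMIs. Macrophage-like cells had 17.8, immature glia 15.4, myelinating Schwann-like cells 12.9, endothelial-like cells 11.9 and pericyte-like cells 7.18, against 18.3 over all kept cells. Ccn3-Irx3-Scg3 mesenchyme had 0.762 and Aldh1a2-Scara3 mesenchyme 2.46, both with much Otor of their own (7194 and 10502 CPM). Neuron-like cells had 66.4 and epithelial cells 29.9, both above the fibrocytes. Penk-Col8a1-B3gat2 mesenchyme had 16.2, Sfrp4-Dlx5-Matn4 mesenchyme 10.2, tectorial membrane epithelium 5.33 and Gpc3-Dcn fibroblasts 3.79. At P1 the fibrocytes had 1.03, and Penk-Col8a1-B3gat2 mesenchyme 6.60. The part of free fibrocyte RNA and of doublets in the Car3 of other classes was not tested.

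Car14, a membrane enzyme with its catalytic site outside the cell, was also highest in the fibrocytes among the classes compared. It went there from 7.49 CPM (6.06 to 9.14; 96 UMIs) to 46.5 CPM (43.1 to 50.1; 678 UMIs), 6.21-fold, and the class held 33.2% and 59.3% of all its UMIs. Thinned to 2000 UMIs, 17 of 1796 cells had a UMI at P1, 0.947% (0.552 to 1.51), and 133 of 1734 at P7, 7.67% (6.46 to 9.02). In immature glia none of 1047 thinned cells had one at P1, which allows a share of up to 0.287%, and 0.164% did at P7. Thinned fibrocytes at P7 had at most 3 Car14 UMIs in a cell, from 147 UMIs in all, against 1486 of Car3. At so low a level the spread of Car14 over cells cannot be compared with that of Car3. The next class at P7 was the tectorial membrane epithelium at 27.1 CPM (17.2 to 40.7; 23 UMIs in 148 cells), against 2.90 CPM at P1 from 2 UMIs. Its log2 ratio was 3.22 (1.21 to 6.35), and without the 3 highest cells of each library it had 12 UMIs at P7 and none at P1. Other epithelial cells went from 1 UMI to 12, 0.768 to 13.3 CPM. These epithelia had 17.5 and 11.98 Car14 UMIs per 1000 Otor UMIs at P7, above the 2.43 of the fibrocytes. In Gpc3-Dcn fibroblasts the change from 2.05 to 2.71 CPM was within counting error (log2 ratio 0.41, -0.32 to 1.16).

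By gate Car2, the fast cytosolic enzyme, had its highest level of the classes compared in pericyte-like cells at both ages, though not by cluster, as given below. These cells, gated on Rgs5, Kcnj8, Abcc9, Notch3 and other genes of the mural cells around capillaries, stood at P1 at 218 CPM (198 to 240; 423 UMIs in 332 cells), and held 27.0% of all Car2 UMIs in 2.60% of the cells. At P7 they stood at 436 CPM (408 to 465; 900 UMIs in 303 cells). The log2 ratio of 0.998 (0.83 to 1.17) lay just short of 2-fold, so Car2 is not among the genes called in the class. Of the 6895 genes compared there, 6.8% were 2-fold or more higher at P7 and 4.95% at P1. Thinned to 2000 UMIs, 24.9% of the cells (20.3 to 30.0) had a Car2 UMI at P1 and 39.5% (33.8 to 45.4) at P7, against 0.287% and 0.575% of immature glia. Car2 in this class was spread over many cells, with 142 of 332 cells at P1 and 189 of 303 at P7 holding a UMI unthinned. Doublet calls took 12.7% and 13.9% of the class, more than the 4.87% and 6.16% over all kept cells, and without called doublets the ratio stayed inside its interval.

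By gate, the largest Car2 ratio of classes with a UMI at both ages was in Ccn3-Irx3-Scg3 mesenchyme, gated on Ccn3, Irx3, Scg3, Postn and Nr2f1. Its level was 24.5 CPM (21.8 to 27.4; 298 UMIs in 1483 cells) at P1 and 393 CPM (372 to 416; 1292 UMIs in 451 cells) at P7, 16.1-fold, where 12.3% of the 9930 genes compared in the class were 2-fold or more higher at P7. At P1 the class was far below the pericyte-like cells, and at P7 the intervals of both classes overlap. Thinned to 2000 UMIs, 3.84% of cells (2.91 to 4.95) had a Car2 UMI at P1 and 24.3% (20.2 to 28.7) at P7, with up to 13 UMIs in a cell. The top 10% of the cells at P7 held 72.6% of the UMIs. The log2 ratio of 4.01 (3.82 to 4.19) has an interval that overlaps that of epithelial cells (3.29, 2.27 to 4.49), and in the cluster named for the same markers it was 2.31 (2.07 to 2.57).

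Much of this Car2 lay in a cluster that also carried Rgs5, a defining gene of pericytes. In the clusters made without carbonic anhydrases, number 20 held 66 cells of the class at P1 and 82 at P7, and these stood at 311 CPM (257 to 374) and 1482 CPM (1386 to 1583). The other 1417 and 369 cells stood at 15.5 CPM (13.3 to 17.9) and 151 CPM (136 to 166). The cluster held 115 of the 298 Car2 UMIs of the class at P1 (38.6%) and 887 of the 1292 at P7 (68.7%). Inside the cluster 51.5% and 69.5% of cells had an Rgs5 UMI, outside 8.12% and 8.94%. The cluster made up 4.45% of the class at P1 and 18.2% at P7, and both inside and outside it the P7 level was above that of P1, by less than the 16.1-fold of the class as a whole. Among thinned P7 cells, those with Car2 had Rgs5 in 33.7% (24.6 to 43.7) and those without in 3.81% (1.98 to 6.56), Crym in 24.8% and 73.7%, and Otor in 62.4% and 96.5%. Ccn3 itself was found in 99.01% and 95.6%, at means of 30.4 and 16.1 UMIs per thinned cell. Over all its kept cells, cluster 20 stood at 290 CPM (245 to 340) of Car2 at P1 and 1440 CPM (1358 to 1524) at P7. The larger cluster named for pericytes (number 13) stood lower, at 203 CPM (181 to 227) and 388 CPM (358 to 420). The part of pericyte RNA or of cells between both gates in the Car2 of the class was not tested.

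In macrophage-like cells Car2 ran the other way, from 136 CPM (117 to 157; 189 UMIs in 161 cells) to 26.8 CPM (19.0 to 36.6; 39 UMIs in 185 cells), with a log2 ratio of -2.34 (-2.88 to -1.84), where 4.86% of the 5389 genes compared in the class were 2-fold or more higher at P1. Of the 189 UMIs at P1, 155 lay in 3 cells with 72, 52 and 31 UMIs. Without the 3 highest cells of each age the levels were 25.6 CPM (17.7 to 35.8) and 18.4 CPM (12.04 to 27.0), and the log2 ratio was -0.47 (-1.27 to 0.31), within counting error. The shares of thinned cells with a UMI were 5.77% and 5.88%.

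The 3 cells at P1 with most Car2 had a profile apart from the rest of their class. Ctsk and Acp5, a collagen-degrading protease and a phosphatase of bone-resorbing cells, stood at 3338 and 2263 CPM in them, and at 62.5 and 29.4 CPM in the other 158 cells. Atp6v0d2, a proton pump subunit of the same cells, had 75 UMIs in the 3 cells and 7 in the others, and Mmp9, a matrix protease, 60 and 1. C1qa, a macrophage gene, was lower in the 3 cells at 863 CPM than in the others at 4667 CPM. These genes were chosen after the values were seen. The doublet detector called 1 of the 3 cells a doublet, and 16.1% of the macrophage-like cells at P1. Without called doublets the class held 152 Car2 UMIs at P1 and 28 at P7 (log2 ratio -2.55, -3.19 to -1.96). At P7 the 182 macrophage-like cells other than the top 3 had no Mmp9 UMI and 1 of Atp6v0d2.

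**Figure D4:**
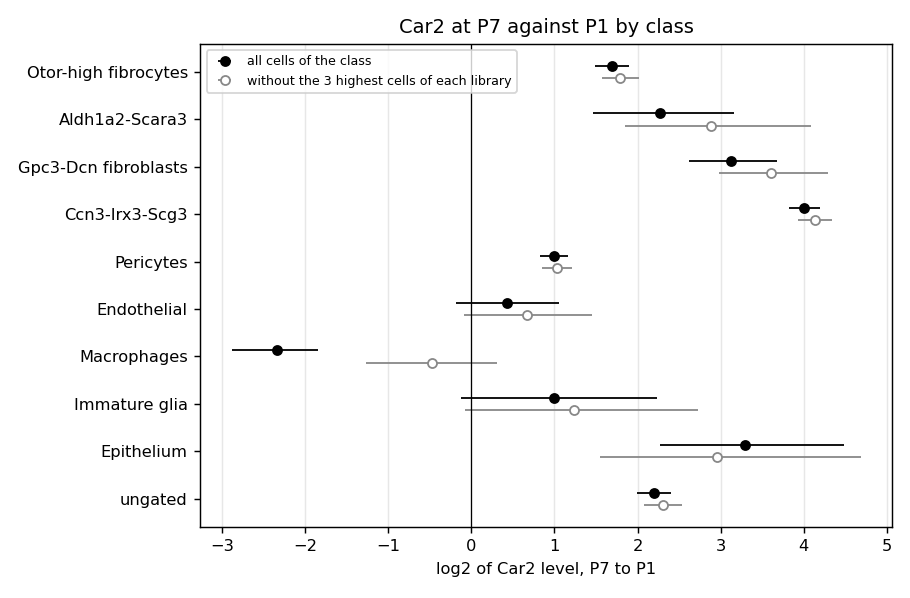
log2 ratio of the Car2 level at P7 to that at P1 by class, with exact 95% intervals for counting error, over all cells of a class (filled) and without the 3 cells with most Car2 UMIs in each library (open). The macrophage-like ratio moved from -2.34 to -0.47, while that of Ccn3-Irx3-Scg3 mesenchyme moved from 4.01 to 4.14 and that of pericyte-like cells from 0.998 to 1.03.

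In 5 of the other 10 gated classes Car2 was higher at P7 with intervals clear of no difference. In Otor-high fibrocytes it went from 18.7 CPM (16.4 to 21.2) to 60.4 CPM (56.5 to 64.5), and in Gpc3-Dcn fibroblasts from 2.68 CPM (1.85 to 3.74) to 23.4 CPM (21.1 to 25.8). Aldh1a2-Scara3 mesenchyme went from 2.08 to 10.0 CPM (log2 ratio 2.27, 1.46 to 3.16). In epithelial cells it went from 6.91 to 67.6 CPM, but 24 of the 61 UMIs at P7 lay in 1 cell, and without the top 3 cells the P7 level was 30.9 CPM (20.2 to 45.3). In myelinating Schwann-like cells none was found at P1 and 57 UMIs at P7, of which 24 lay in 3 cells, and the exact lower limit of the log2 ratio was 1.21, or 0.38 without the 3 highest cells of each library. Endothelial-like cells (22.7 and 30.5 CPM), tectorial membrane epithelium (8.71 and 21.2 CPM), Penk-Col8a1-B3gat2 mesenchyme (2.53 and 6.83 CPM), immature glia (1.60 and 3.20 CPM) and neuron-like cells (1.74 and 6.13 CPM) had ratios whose intervals include no difference. By cluster the tectorial membrane epithelium did differ. The cluster named for its markers (number 14) stood at 9.56 CPM of Car2 at P1 (6.06 to 14.3; 23 UMIs in 283 cells). At P7 that cluster stood at 66.0 CPM (54.7 to 78.9; 120 UMIs in 219 cells).

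Red blood cells are rich in Car2, so haemoglobin was set beside it. The few erythroid-like cells, 6 at P1 and 26 at P7, stood at 784 and 664 CPM of Car2, and had 3.34 and 3.57 Car2 UMIs per 1000 haemoglobin UMIs. Pericyte-like cells had 628 and 2027 per 1000, Ccn3-Irx3-Scg3 mesenchyme 80.9 and 348, and Otor-high fibrocytes 45.2 and 121, all above the erythroid ratio. Ratios below 10 per 1000 were found at P1 in endothelial-like cells (1.76, with 12887 CPM of haemoglobin), Penk-Col8a1-B3gat2 mesenchyme (2.69), Aldh1a2-Scara3 mesenchyme (5.73) and Gpc3-Dcn fibroblasts (9.76), and at P7 in macrophage-like cells (7.83) and immature glia (8.81). The part of red cell RNA in the Car2 of these classes was not tested. Haemoglobin over all kept cells went from 774 to 1573 CPM.

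**Figure D5:**
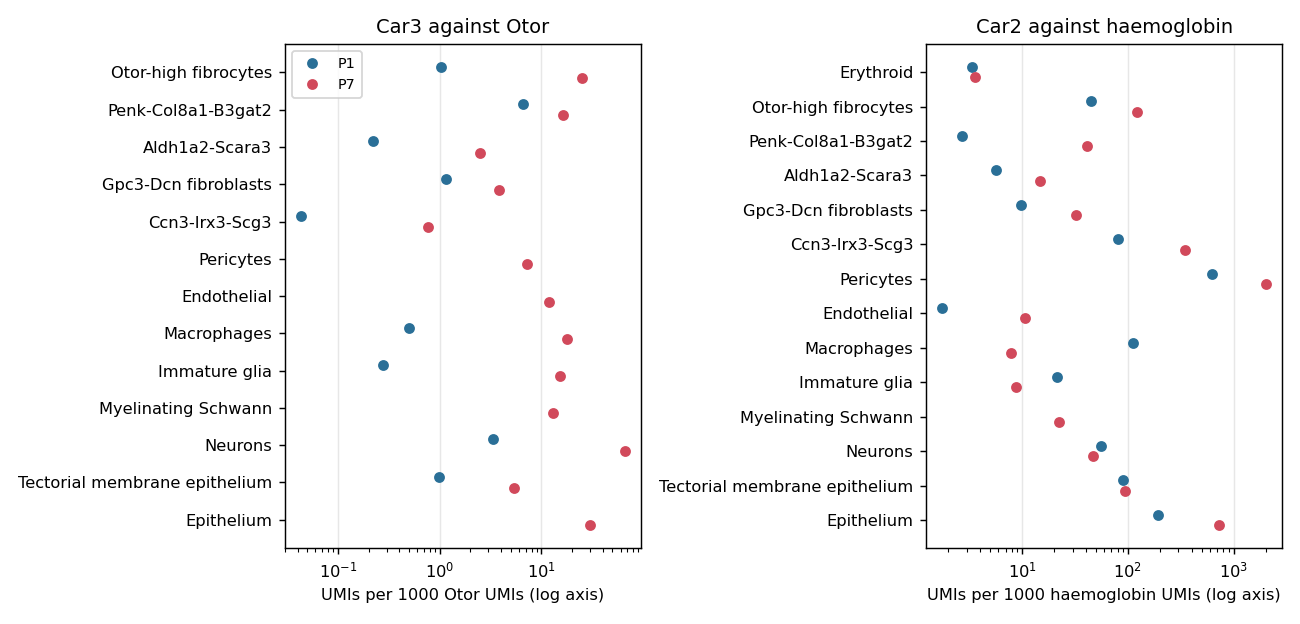
Car3 UMIs per 1000 Otor UMIs (left) and Car2 UMIs per 1000 haemoglobin UMIs (right), both on log axes, by class at P1 (blue) and P7 (red); classes without a UMI have no point. Pericyte-like cells lay at 628 and 2027 Car2 UMIs per 1000 haemoglobin UMIs and erythroid-like cells at 3.34 and 3.57, while Car3 per 1000 Otor UMIs at P7 lay at 25.3 in fibrocytes and 0.762 in Ccn3-Irx3-Scg3 mesenchyme.

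Car8, the inactive related protein, was rare, and of the classes compared its level was highest in neuron-like cells at P1 and in myelinating Schwann-like cells at P7. At both ages the interval overlaps that of the next class, endothelial-like cells at P1 and neuron-like cells at P7, so the top class is not settled. At P1 neuron-like cells held 51 of its 163 UMIs, at 7.40 CPM, and immature glia 23, at 3.68 CPM. At P7 myelinating Schwann-like cells held 65 of 225 UMIs, at 7.79 CPM (6.01 to 9.93), against 4 UMIs and 3.09 CPM at P1, a ratio whose interval includes no difference (log2 1.33, -0.09 to 3.25). Neuron-like cells had 3 UMIs left at P7 in 68 cells, 6.13 CPM (1.26 to 17.9). In the fibrocytes Car8 was lower at P7, 2.18 against 0.891 CPM (28 and 13 UMIs; log2 ratio -1.29, -2.37 to -0.30). Melanocyte-like cells, 8 at P1 and 6 at P7, held 15 and 22 Car8 UMIs, 318 CPM and 257 CPM (161 to 388), levels reached in no other class, and 3 and 1 of these cells were called doublets. Thinned shares of cells with a UMI reached 0.746% in neuron-like cells at P1 and 1.39% in myelinating Schwann-like cells at P7, against 0.167% and 0.115% in fibrocytes.

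Car12, the other membrane enzyme, had too few UMIs for an order of classes. At P1 11 of 33 UMIs lay in neuron-like cells (1.60 CPM), 5 in Penk-Col8a1-B3gat2 mesenchyme (1.41 CPM) and 8 in ungated cells. At P7 the 3 UMIs lay in ungated cells and in 1 epithelial cell.

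Of the other 11 carbonic anhydrases, 5 had the 200 UMIs in both libraries together needed to be compared over all kept cells. Car5b and Car9 were 2-fold or more higher at P7 and none was 2-fold higher at P1, where 10.4% and 10.2% of all genes were, with a median log2 ratio of 0.80 beside 0.07 over all genes compared. Car11 was found throughout, at 114 and 199 CPM over all kept cells and highest in Gpc3-Dcn fibroblasts at 197 and 337 CPM. In the fibrocytes Car5b, a mitochondrial form, went from 1.40 to 7.75 CPM and Car13, a cytosolic form, from 2.89 to 9.05 CPM. Car1, Car4, Car5a and Car15 reached no more than 0.968 CPM in any class of at least 50 cells (Car4 in pericyte-like cells at P7, 2 UMIs).

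Genes that move bicarbonate, protons, lactate or water were set beside them as a list of 26. Over all kept cells 16 were compared, 4 were 2-fold or more higher at P7 (Slc4a11, Slc26a7, Atp6v0a4, Aqp1) and 2 higher at P1 (the bicarbonate cotransporters Slc4a4 and Slc4a7), where 10.4% and 10.2% of all genes were, with a median log2 ratio of 0.28 beside 0.07 over all genes. In the fibrocytes 14 were compared, with a median of 0.57 beside 0.16 over all genes, and 3 were 2-fold higher at P7 and 1 at P1, where 14.3% and 7.53% of all genes were: Aqp1, a water channel, went from 23.9 to 98.9 CPM, Slc4a11 from 0.780 to 5.62 CPM and Slc4a10 from 0.312 to 4.32 CPM, while Slc4a7 went from 15.6 to 5.90 CPM. In Ccn3-Irx3-Scg3 mesenchyme 10 were compared, with Aqp1 (33.9 to 88.9 CPM) and the anion exchanger Slc4a2 (7.22 to 20.4 CPM) higher at P7 and Slc4a7 lower, where 12.3% and 7.13% of all genes were. In pericyte-like cells 8 were compared and none differed 2-fold, where 6.8% of all genes were 2-fold higher at P7 and 4.95% at P1, and Atp6v0a4, a proton pump subunit, was highest in that class at both ages (20.1 and 32.4 CPM). Members of the list that reached 100 CPM in a class were Bsg (3088 CPM in epithelial cells at P7), Slc26a7 (194 CPM there), Atp6v1a (136 CPM there), Aqp1 (138 CPM in Penk-Col8a1-B3gat2 mesenchyme at P7), and Atp6v1b2 and Atp6v0a1 (141 and 126 CPM in macrophage-like cells at P1).

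The genes most like each member were ranked by Pearson's r of log2(CPM + 5) over the 29 sums of classes and libraries of at least 50 cells, which share libraries and depth. For Car3 they were Gcg (0.879), Cytl1 (0.867), Zp2 (0.842), Popdc2 (0.834) and Ccn4 (0.820), and for Car2 Smim3 (0.849), Actr3 (0.802), Slc29a1 (0.778), Baiap3 (0.766) and Tnfaip2 (0.761). For Car14 they were Msx3 (0.819), Kctd14 (0.815), Dapl1 (0.778), Rbpjl (0.773) and Adamts14 (0.773), and for Car8 Shroom2 (0.784), Psd (0.774), Sncg (0.772), Sema4g (0.758) and Fhdc1 (0.750). With Spearman's rho in place of r, 3 of the 5 remained for Car3, 2 for Car2, 1 for Car14 and 0 for Car8. By rho, Car3 was among the 5 genes nearest to Car14.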

How the data were processed

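The cells were counted by the authors with Cell Ranger (3.1.0 by the matrix headers) after demultiplexing with bcl2fastq, against rat genome rn6, and the deposited values are raw UMI counts per gene and barcode, pooled over the rats of an age, with red cells lysed before loading. The submitters' notes also name Seurat 3.1.1. From these counts, barcodes had to show over 500 but fewer than 5000 genes, 500 or more UMIs and a mitochondrial share below 25%, as the study set them, though the numbers left are not those it states. Each cell was scored by the mean z-score (limit 5) of its markers' log values and gated at a score of 0.5, a lead of 0.3 and 3 markers found. This scoring rule was settled after marker values had been seen. Markers with no matching symbol were not used here, and Esrrb had no UMI. Sums per class and library gave the levels. Classes of at least 50 cells in both libraries, 13 beside the ungated cells, were compared, and a count of 0 was given a limit of 3. Genes needed 200 UMIs over both libraries to be compared over all cells and 50 within a class. With 1 library per age no test was run. Clusters came from Seurat 5.3.0 in R 4.3.3 (10 components, 20 neighbours, resolution 0.8) without carbonic anhydrases. Scrublet in scanpy 1.11.5 called doublets. Python 3.11.15, numpy 2.4.6, scipy 1.17.1, pandas 2.3.3 and matplotlib 3.10.9 were used, and the computations were tested on simulated counts. Named are the members, the other carbonic anhydrases, acid-base genes reaching 100 CPM or 2-fold, and the 5 genes most like each member with 200 UMIs. The members and lists were chosen with earlier results of these data known.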

Additional observations from a re-analysis of the deposited data

Results flagged for a closer look

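Car2 in macrophage-like cells was lower at P7 (log2 ratio -2.34) while it was higher in 7 other gated classes with intervals clear of no difference. The difference between classes was not tested, and the ratio rests on 3 cells of P1, as given above.

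Barcodes outside the limits on cells held more of some members than the kept cells. Car2 stood at 197 CPM in the barcodes left out at P7, against 54.1 CPM in kept cells: 1235 of its UMIs there lay in 1389 barcodes with too few genes, at 388 CPM (367 to 410), where haemoglobin was 15.3% of all UMIs and Car2 2.54 per 1000 haemoglobin UMIs, and 336 lay in 86 barcodes with too many genes, at 111 CPM (99.3 to 123), with 2211 per 1000. At P1 the barcodes with too few genes stood at 195 CPM of Car2 with 13.1% haemoglobin. Car8 stood at 3.99 CPM in the barcodes left out at P1, 57 of the UMIs in 384 barcodes with too many genes, and Car12 at 0.921 CPM.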

How the results depend on the processing

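The 10 log2 ratios were recomputed under other settings, which gave 55 values. All of these values kept the direction, and 35 stayed inside the counting interval. Over all kept cells Car2 (1.76) was 1.86 with at most 10% mitochondrial UMIs, 2.04 over all barcodes, 1.84 without doublets, 1.67 with haemoglobin, mitochondrial and ribosomal protein genes out of the total, and 1.57 as a mean over cells. Car3 (3.89) was 4.01 under the mitochondrial limit, 3.75 without doublets and 3.49 as a mean over cells, Car8 (0.54) 0.23 over all barcodes, and Car14 (2.06) 1.67 as a mean over cells. In Ccn3-Irx3-Scg3 mesenchyme Car2 (4.01) was 3.60 as a mean over cells, 4.27 with a stricter gate (a score of 1 and a lead of 0.6) and 2.31 in the cluster named for the same markers, number 20. In macrophage-like cells Car2 (-2.34) was -0.88 as a mean over cells. In Otor-high fibrocytes Car3 (4.73) was 4.54 as a mean over cells, 6.34 with the stricter gate and 4.96 in clusters, and Car14 (2.63) 2.28, 3.09 and 3.28. These cluster values pool numbers 0 and 11, with 3066 and 27 cells at P1 and 53 and 870 at P7. They thus set mostly 1 cluster at P1 against another at P7. An alternative chosen after seeing the data, without the 3 cells with most UMIs, gave 1.87 for Car2 over all cells, -0.47 for Car2 in macrophage-like cells and 5.04 for Car3 in fibrocytes. Shares of cells with a UMI moved with depth. Unthinned they were, at P1 and P7, 3.74% and 31.0% for Car3 and 4.63% and 24.0% for Car14 in fibrocytes, and for Car2 42.8% and 62.4% in pericyte-like cells and 7.96% and 30.4% in Ccn3-Irx3-Scg3 mesenchyme. Thinned to 1000 UMIs, Car3 and Car14 in fibrocytes at P7 were 16.0% and 3.64%, and Car2 17.5% and 26.4% in pericyte-like cells and 2.50% and 15.2% in Ccn3-Irx3-Scg3 mesenchyme. The causes were not tested. No paired analysis was possible because each age is 1 library without a replicate number.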
